A study of Mus musculus with 64 samples.

Results

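The genes described here are used to describe the macrophages of adipose tissue, and other cells express some of them. They were 39 mouse genes, named by symbol and sorted by role into 5 groups: 8 pan-macrophage and leukocyte genes, 8 genes of Fc receptors, their adaptors, complement C1q and cathepsin S, 5 resident-like scavenger and endocytic receptor genes, 12 lipid-associated macrophage and lysosomal genes, and 6 monocyte and activation genes. The rule names the genes by symbol and uses no measured value. Each symbol matched 1 of the 52636 Ensembl identifiers in the count table, and all 39 were among the 20249 genes that passed the filter on low counts.

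RNA was isolated from brown fat (BAT, brown adipose tissue) and epididymal white fat (eWAT) of male mice aged 2 to 4 months, of the *Nampt* tm1Jtree line crossed with Adiponectin-Cre mice. The fat-specific *Nampt* knockout (FANKO) mice carried the Cre, and their WT controls were Cre- littermates. Tissue was taken at zeitgeber time (ZT) 6, 10, 18 and 22, counted in hours from lights on, which gave 16 groups of 4 samples. The study asked how loss of *Nampt*, which encodes an enzyme of NAD+ synthesis, affects tissue rhythms. The *Adipoq* promoter drives the Cre in adipocytes of every fat depot, so macrophages are not the cells it targets, and exon 3, flanked by loxP sites, is a small stretch of a transcript whose other exons were still counted. The labels do not say that replicates are separate animals, so p-values measure the spread between these samples.

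Tissue macrophages take up debris, lipid and dying cells through scavenger and Fc receptors, and depend on the growth factor receptor CSF1R. Resident macrophages of fat carry endocytic receptors such as CD206 (*Mrc1*), CD163 and LYVE1. Lipid-associated macrophages form around failing adipocytes: the receptor TREM2, which signals through the adaptor TYROBP, senses lipid, and the cells express lysosomal enzymes and lipid-handling proteins.

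Total counts ran from 6117343 to 30544847 per sample, with a median of 15826651. Levels are given as CPM, read counts scaled to a common library size after TMM normalization, as the lowest, median and highest of 16 samples. *Nampt* had 479, 702 and 1454 CPM in WT BAT and 109, 143 and 186 CPM in FANKO BAT, without overlap. In eWAT it had 112, 149 and 310 CPM in WT and 101, 114 and 131 CPM in FANKO, where 12 of the FANKO samples lay within the WT range. The 6 brown adipocyte genes listed summed to a median of 7084 CPM in WT BAT, 2373 CPM in FANKO BAT, 11.0 CPM in WT eWAT and 47.7 CPM in FANKO eWAT, so that the depots matched their labels. The 6 skeletal muscle genes passed a sum of 100 CPM in 7 BAT samples, 4 WT and 3 FANKO, and the 6 B cell genes passed 50 CPM in 3 samples.

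In BAT, most macrophage genes were far higher in FANKO than in WT mice. With edgeR's quasi-likelihood test of the mean level over the 4 time points, Benjamini-Hochberg adjustment over all genes tested and a false discovery rate (FDR) below 0.01, 31 of the 39 rose, 2 fell and 6 did not pass. Among all genes tested, 33.1% rose and 33.9% fell. Each of the 31 had a higher FANKO mean at all 4 time points. For 28 of the 39, every FANKO sample lay above every WT sample, as for 12.5% of all genes, and for none did every FANKO sample lie below, as for 10% of all genes. The median log2 fold change was 3.44 over the 39 genes and 9.7e-05 over all genes. In whole tissue, more macrophages, more RNA per macrophage and a change in the RNA of other cells cannot be told apart. The plot of 12 genes by sample shows the separation.

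**Figure D1:**
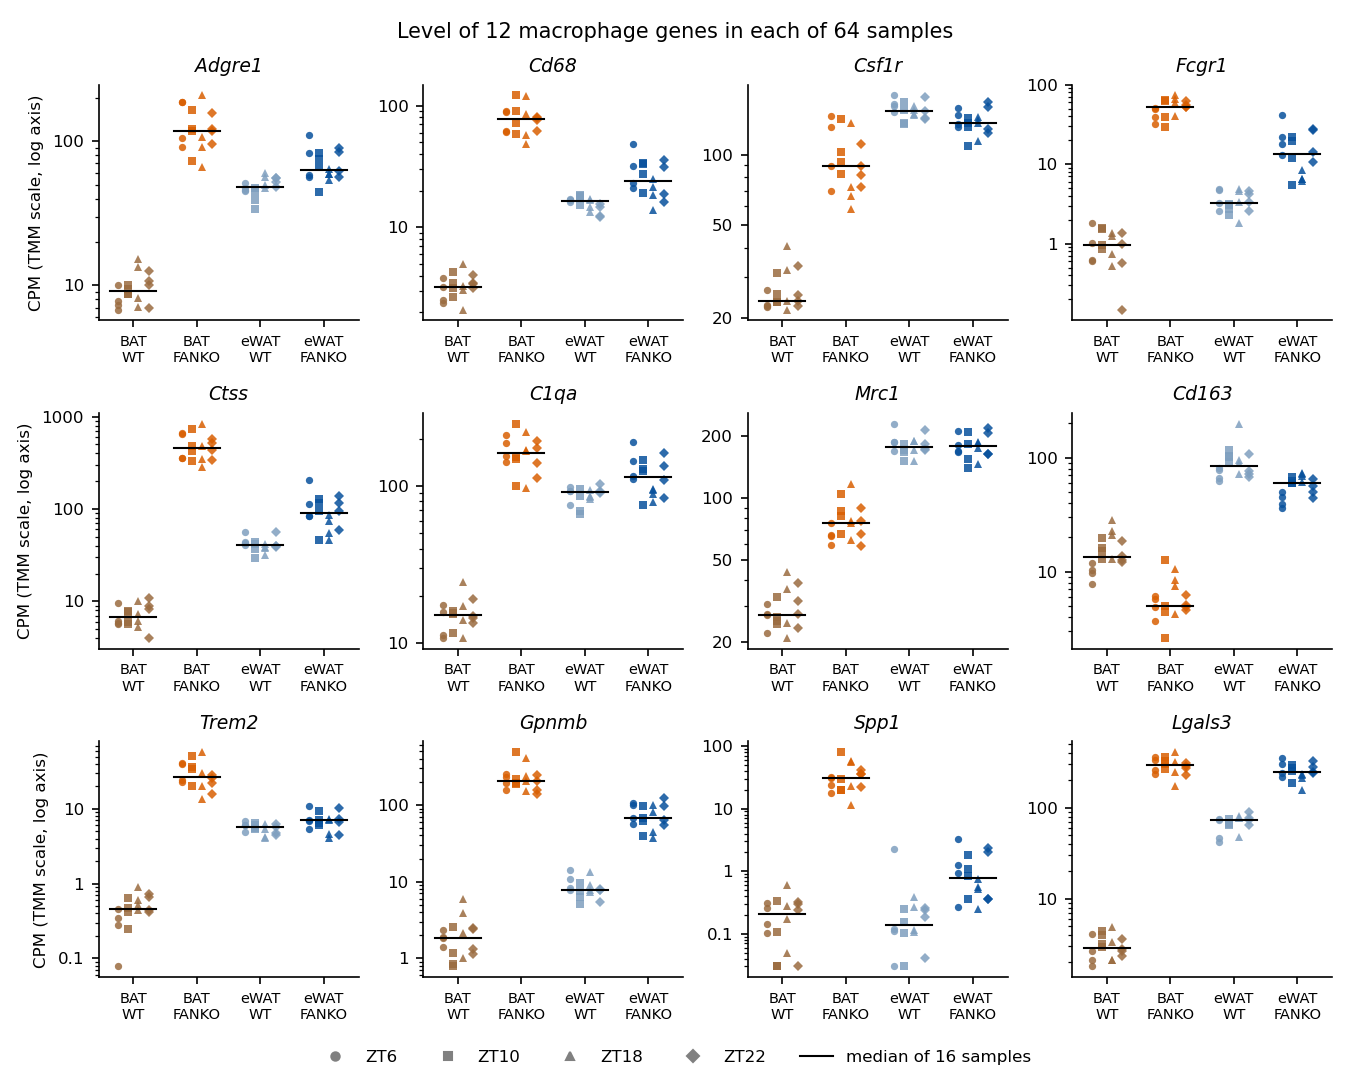
Level of 12 macrophage genes in each of the 64 samples, in CPM on a log axis (values under 0.03 drawn at 0.03), by depot and genotype; marker shapes give the time point and lines the median of 16 samples. *Lgals3* ran from 1.81 to 4.96 CPM in WT BAT and from 174 to 409 CPM in FANKO BAT, while *Cd163* had its lowest levels in FANKO BAT.

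Of the 8 pan-macrophage and leukocyte genes, 7 rose in FANKO BAT. *Adgre1*, which encodes the macrophage surface protein F4/80, had 6.79, 9.13 and 15.3 CPM in WT and 66.0, 118 and 208 CPM in FANKO BAT. Its 16 FANKO samples all lay above the WT samples, at a log2 fold change of 3.71 ± 0.14 (SE; adjusted p = 9.2e-33, edgeR). *Cd68*, a glycoprotein of late endosomes and lysosomes, had 2.10, 3.23 and 4.96 CPM in WT and 47.9, 78.1 and 122 CPM in FANKO, a 23.6-fold difference. *Csf1r*, the receptor for the growth factor on which macrophages depend, rose less, from 21.7, 23.6 and 40.5 CPM to 58.3, 89.6 and 146 CPM, which was 3.67-fold. The groups did not overlap for either gene. *Ptprc*, the CD45 phosphatase carried by all leukocytes, went from a median of 13.7 to 424 CPM (29.6-fold), and *Itgam*, the integrin CD11b, from 0.632 to 9.66 CPM (14.2-fold). The lysozyme gene *Lyz2* rose 9.01-fold. Its paralogue *Lyz1*, whose reads can be hard to assign apart from those of *Lyz2*, rose 2.00-fold (adjusted p = 0.00018, edgeR), with 9 of its 16 FANKO samples inside the WT range. Its call was lost without the samples numbered replicate 4 (log2 fold change 0.78 ± 0.28). *Cd14*, the lipopolysaccharide co-receptor, went the other way: it had 4.76, 7.13 and 12.4 CPM in WT and 2.99, 4.57 and 6.12 CPM in FANKO BAT, 1.62-fold lower (adjusted p = 8.9e-09, edgeR). Scaled by library size alone, the difference fell to a log2 fold change of -0.11 ± 0.12 and did not pass.

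All 8 genes of Fc receptors, adaptors, C1q and cathepsin S rose in FANKO BAT, and for none did the groups overlap. *Ctss*, a lysosomal protease that also processes the class II invariant chain, had 4.00, 6.72 and 11.0 CPM in WT and 285, 459 and 840 CPM in FANKO, 68.0-fold higher (log2 fold change 6.09 ± 0.18, adjusted p = 5.1e-37, edgeR). *Fcgr1*, the high-affinity IgG receptor, had 0.148, 0.977 and 1.84 CPM in WT and 29.2, 52.6 and 73.5 CPM in FANKO, 52.1-fold higher. The low-affinity receptor gene *Fcgr3* rose 6.32-fold, from a median of 4.75 to 25.9 CPM. *Fcer1g*, the signalling chain of activating Fc receptors, rose 17.4-fold, from a median of 2.30 to 44.6 CPM, and *Tyrobp*, the adaptor of TREM2 and other receptors, rose 19.6-fold, from 3.57 to 72.1 CPM. The 3 chains of C1q, the complement component that recognises immune complexes and dying cells, moved alike. *C1qa* rose 10.9-fold to a median of 161 CPM, *C1qc* 9.41-fold to 121 CPM, and *C1qb* rose to 147 CPM at a log2 fold change of 3.70 ± 0.13.

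The 5 resident-like genes did not follow 1 pattern. *Mrc1*, the mannose receptor, had 20.9, 27.1 and 43.8 CPM in WT and 58.6, 75.6 and 117 CPM in FANKO BAT, 2.65-fold higher and without overlap. *Folr2*, folate receptor beta, rose 5.28-fold, also without overlap, from a median of 0.628 to 3.70 CPM. *Lyve1*, a hyaluronan receptor that lymphatic endothelium also expresses, rose 2.33-fold, with 8 FANKO samples above the whole WT range. *Cd163*, the haemoglobin-haptoglobin receptor, fell from 7.79, 13.4 and 28.3 CPM to 2.62, 5.04 and 12.8 CPM, 2.44-fold lower (log2 fold change -1.29 ± 0.14, adjusted p = 2e-12, edgeR). Of its FANKO samples, 13 lay below every WT sample. *Timd4*, a phosphatidylserine receptor, did not pass, at medians of 0.481 and 0.588 CPM. Over the 5 genes the median log2 fold change was 1.22, against 5.88 over the 12 lipid-associated genes.

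Of the 12 lipid-associated genes, 11 rose in FANKO BAT, and for 10 of them the groups did not overlap. *Gpnmb*, a transmembrane glycoprotein of lipid-laden macrophages, had 0.778, 1.84 and 5.85 CPM in WT and 140, 205 and 492 CPM in FANKO, 114-fold higher (log2 fold change 6.83 ± 0.23, adjusted p = 1e-34, edgeR). *Lgals3*, which encodes the lectin galectin-3, had 1.81, 2.89 and 4.96 CPM in WT and 174, 295 and 409 CPM in FANKO, 95.7-fold higher (6.58 ± 0.14, adjusted p = 1.7e-43, edgeR). *Trem2* rose 63.5-fold, from 0.0780, 0.457 and 0.895 CPM to 13.4, 27.0 and 57.4 CPM. *Itgax*, the integrin CD11c, went from a median of 0.679 to 36.9 CPM, 54.9-fold. The secreted elastase gene *Mmp12*, the proton pump subunit gene *Atp6v0d2* and *Spp1*, osteopontin, were near the limit of detection in WT BAT. They had 40, 43 and 41 counts over the 16 WT samples, with 0 counts in 2, 4 and 3 of them. *Mmp12* had 32.9, 55.3 and 128 CPM in FANKO BAT, *Spp1* had 11.5, 30.5 and 80.3 CPM, and *Atp6v0d2* had 9.18, 20.2 and 55.2 CPM. Their fitted differences of 264-fold, 157-fold and 125-fold rest on those few WT counts. The scavenger receptor gene *Msr1* rose 14.9-fold, the cysteine protease gene *Ctsk* 5.65-fold and the tetraspanin gene *Cd9* 3.24-fold. *Ctsd*, a lysosomal aspartic protease of most cell types, was abundant in both groups, with 798, 1051 and 1392 CPM in WT and 1273, 1527 and 1954 CPM in FANKO BAT, and rose 1.46-fold. *Apoe*, an apolipoprotein that adipocytes also make, had medians of 427 and 432 CPM and did not pass (log2 fold change 0.0065 ± 0.11).

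The sequences before the transcription start sites are shown for the 4 lipid-associated genes with the smallest p-values in eWAT. Gene positions are from GENCODE M21 on GRCm38, the build of the counts, and the 250 bases before each start are from RefSeq on GRCm38.p6. *Lgals3* lies on chromosome 14 from 47367751 to 47386160 on the plus strand, and its RefSeq window, chr14:47373610-47373859, falls inside the longer GENCODE gene. *Gpnmb* lies on chromosome 6 from 49036546 to 49070929 on the plus strand, with the window chr6:49036268-49036517. *Mmp12* lies on chromosome 9 from 7344381 to 7369499 on the plus strand, with the first of its 2 windows at chr9:7344147-7344396. *Ctsd* lies on chromosome 7 from 142375911 to 142388038 on the minus strand, with the window chr7:142387828-142388077. Each is printed 5′ to 3′ on the strand of its gene, with motif matches in capitals:
Lgals3: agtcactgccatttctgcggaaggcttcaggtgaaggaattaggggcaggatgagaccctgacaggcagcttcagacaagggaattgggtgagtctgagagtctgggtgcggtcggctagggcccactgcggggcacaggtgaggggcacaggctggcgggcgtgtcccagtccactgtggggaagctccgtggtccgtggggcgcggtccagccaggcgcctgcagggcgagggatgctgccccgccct
Gpnmb: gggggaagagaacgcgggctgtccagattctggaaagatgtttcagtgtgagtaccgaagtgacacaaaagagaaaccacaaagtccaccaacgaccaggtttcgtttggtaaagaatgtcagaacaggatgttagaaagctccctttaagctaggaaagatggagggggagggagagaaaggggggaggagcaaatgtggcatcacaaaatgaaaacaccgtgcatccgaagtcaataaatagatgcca
Mmp12: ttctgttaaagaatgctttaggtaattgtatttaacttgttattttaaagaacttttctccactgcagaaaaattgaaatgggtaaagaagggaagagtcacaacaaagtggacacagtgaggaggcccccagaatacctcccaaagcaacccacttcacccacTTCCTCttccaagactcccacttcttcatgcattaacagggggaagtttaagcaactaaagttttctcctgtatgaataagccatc
Ctsd: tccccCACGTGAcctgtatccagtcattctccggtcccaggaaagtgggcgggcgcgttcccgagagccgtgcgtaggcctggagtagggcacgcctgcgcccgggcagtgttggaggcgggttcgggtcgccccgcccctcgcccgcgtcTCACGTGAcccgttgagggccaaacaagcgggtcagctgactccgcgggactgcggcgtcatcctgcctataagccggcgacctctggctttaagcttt
The capitals mark the core of PU.1 sites (GAGGAA), the transcription factor that specifies macrophages, 86 to 81 bases before the start of *Mmp12*. In *Ctsd* they mark the M-box (TCACGTG) bound by the MiT factors of lysosomal genes, 245 to 239 bases before the start and in 2 overlapping matches on the 2 strands from 99 to 92. The third motif searched was that of AP-1 (TGANTCA), and all were read on both strands. RefSeq windows were found for 29 of the 39 genes. The PU.1 core was present for 18 of the 29 and for 25.85% of all 27025 genes with a window. The M-box was present for *Ctsd* alone among the 29 and for 3.58% of all genes, and the AP-1 motif for 5 (*Cd68*, *Folr2*, *Itgax*, *Mmp12* and *Trem2*) and 7.82% of all genes. The AP-1 match of *Mmp12* lies in its second window, chr9:7347124-7347373, which is not printed. In *Lgals3* and *Gpnmb* no match was found in the 250 bases.

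Among the 6 monocyte and activation genes, 2 rose in FANKO BAT and 4 did not pass. That count was near the share of all genes, of which 33.1% rose. *Ly6c2*, a surface protein of inflammatory monocytes, had 34 counts over the 16 WT samples and 32.3, 63.1 and 98.0 CPM in FANKO BAT, a log2 fold change of 8.38 ± 0.29 (adjusted p = 7.7e-34, edgeR). *Clec7a*, the beta-glucan receptor dectin-1, had 1.19, 2.16 and 3.99 CPM in WT and 19.6, 31.7 and 91.7 CPM in FANKO, 17.0-fold higher. Neither gene overlapped between the groups. The genes most used to describe activation states were low and did not pass. *Nos2*, inducible nitric oxide synthase, had medians of 4.28 and 5.38 CPM, and *Arg1*, arginase, had 0.569 and 0.693 CPM. *Retnla*, which responds to type 2 cytokines, had medians of 6.30 and 6.34 CPM with a wide FANKO range of 1.40 to 19.3 CPM. *Marco*, a scavenger receptor, had 2 counts over the 16 WT samples and 6 over the 16 FANKO samples, too few for a fold change.

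In eWAT the differences were smaller and less uniform. Of the 39 genes, 18 were higher in FANKO eWAT, 7 were lower and 14 did not pass, where 27.6% of all genes rose and 22.8% fell. The median log2 fold change was 0.31 over the 39 and -0.025 over all genes. Every FANKO sample lay above every WT sample for 5 genes, *Fcgr1*, *Gpnmb*, *Ctsd*, *Lgals3* and *Itgax*, as for 4.57% of all genes. Every FANKO sample lay below for *Lyz1* and *Retnla*, as for 1.33% of all genes. All 18 had a higher FANKO mean at each of the 4 time points, and 6 of the 7 a lower one, *Cd14* being the exception at ZT 6. The size of the rise varied: all of the 18 but *Spp1*, *Mmp12* and *Ctsd* had their smallest ratio of means at ZT 18. For *C1qa*, *C1qb* and *Adgre1* it was 1.03, 1.05 and 1.11 there, against 1.56, 1.60 and 1.62 at ZT 6. For *Fcgr1* it was 1.87 against 6.14. The test for a different rhythm, given below, called none of the 39 in eWAT. The scaling moved this balance: by library size alone, 14 genes rose and 12 fell in eWAT, and 35 rose and 1 fell in BAT, where 11.8% of all genes rose and 42.4% fell in eWAT and 63.1% rose and 11.2% fell in BAT. The median over all genes was then -0.27 in eWAT and 0.58 in BAT.

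Of the 12 lipid-associated genes, 7 were higher in FANKO eWAT and *Ctsk* was lower. *Gpnmb* had 5.07, 7.78 and 14.0 CPM in WT and 37.5, 67.7 and 122 CPM in FANKO eWAT, 8.71-fold higher (log2 fold change 3.12 ± 0.18, adjusted p = 2.3e-22, edgeR). *Mmp12* had 0.749, 2.31 and 5.82 CPM in WT and 5.38, 23.9 and 47.8 CPM in FANKO, 9.98-fold higher, with 15 of 16 FANKO samples above the WT range. *Lgals3* had 41.9, 73.4 and 90.4 CPM in WT and 156, 244 and 353 CPM in FANKO, 3.68-fold higher. The FANKO medians of *Lgals3*, 295 CPM in BAT and 244 CPM in eWAT, lay closer than its WT medians, 2.89 and 73.4 CPM. *Itgax* rose 2.72-fold, *Atp6v0d2* 3.71-fold and *Ctsd* 2.03-fold, the last from 383, 772 and 1102 CPM to 1336, 1512 and 1862 CPM. *Spp1* rose 3.78-fold at medians of 0.136 and 0.786 CPM, a call that was lost without the samples numbered replicate 3 (log2 fold change 1.23 ± 0.49). *Trem2* itself was not called, with 4.10, 5.66 and 6.92 CPM in WT and 4.13, 7.03 and 11.0 CPM in FANKO eWAT (log2 fold change 0.34 ± 0.14, adjusted p = 0.033, edgeR). *Cd9*, *Apoe* and *Msr1* also did not pass. *Ctsk* fell 1.72-fold, to a median of 6.71 CPM, against its rise in BAT.

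Of the 8 pan-macrophage and leukocyte genes, 3 rose and 2 fell in FANKO eWAT, near the 27.6% and 22.8% of all genes. *Adgre1*, *Cd68* and *Ptprc* rose by 1.42-fold, 1.65-fold and 1.63-fold, and *Csf1r*, *Itgam* and *Lyz2* did not pass. *Csf1r* had 135, 154 and 180 CPM in WT and 109, 137 and 169 CPM in FANKO eWAT. Its ranges overlapped widely, at a log2 fold change of -0.17 ± 0.09. *Lyz1* fell from 17.7, 30.4 and 40.5 CPM to 3.38, 6.18 and 15.1 CPM, 3.95-fold lower (adjusted p = 9.7e-18, edgeR). *Lyz2* had medians of 286 and 278 CPM in the same samples. *Cd14* fell 1.24-fold, a call lost without the samples numbered replicate 1 or 4. Among the effector genes, *Fcgr1* rose 4.28-fold, from 1.82, 3.28 and 4.87 CPM to 5.40, 13.6 and 41.6 CPM, and *Ctss* 2.29-fold. *Tyrobp*, *Fcer1g*, *C1qa* and *C1qb* rose by 1.33-fold to 1.59-fold, while *Fcgr3* and *C1qc* did not pass. FANKO eWAT replicate 3 at ZT 6 had the highest summed level of both groups of genes, and without replicate 3 of every group the calls of *Adgre1*, *Tyrobp*, *C1qa* and *C1qb* were lost (log2 fold changes of 0.34, 0.35, 0.25 and 0.26). Scaling by library size alone also ended these 4 calls.

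No resident-like gene rose in FANKO eWAT and 2 of the 5 fell, where 27.6% of all genes rose and 22.8% fell. *Lyve1* fell 2.06-fold, from 25.2, 36.3 and 51.4 CPM to 11.5, 16.4 and 25.4 CPM, with 15 FANKO samples below the WT range. *Cd163* fell 1.61-fold, from 62.9, 84.8 and 198 CPM to 35.9, 60.3 and 73.1 CPM (log2 fold change -0.69 ± 0.12, adjusted p = 8.6e-07, edgeR). *Mrc1*, *Folr2* and *Timd4* had ratios near 1 and did not pass. *Retnla*, abundant in WT eWAT at 117, 171 and 233 CPM, fell 2.40-fold to 53.5, 71.6 and 95.9 CPM in FANKO, without overlap. *Marco* fell 2.54-fold, from a median of 2.09 to 1.02 CPM, *Ly6c2* rose 5.82-fold, from 0.837 to 5.49 CPM, and *Clec7a* rose 1.95-fold.

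**Figure D2:**
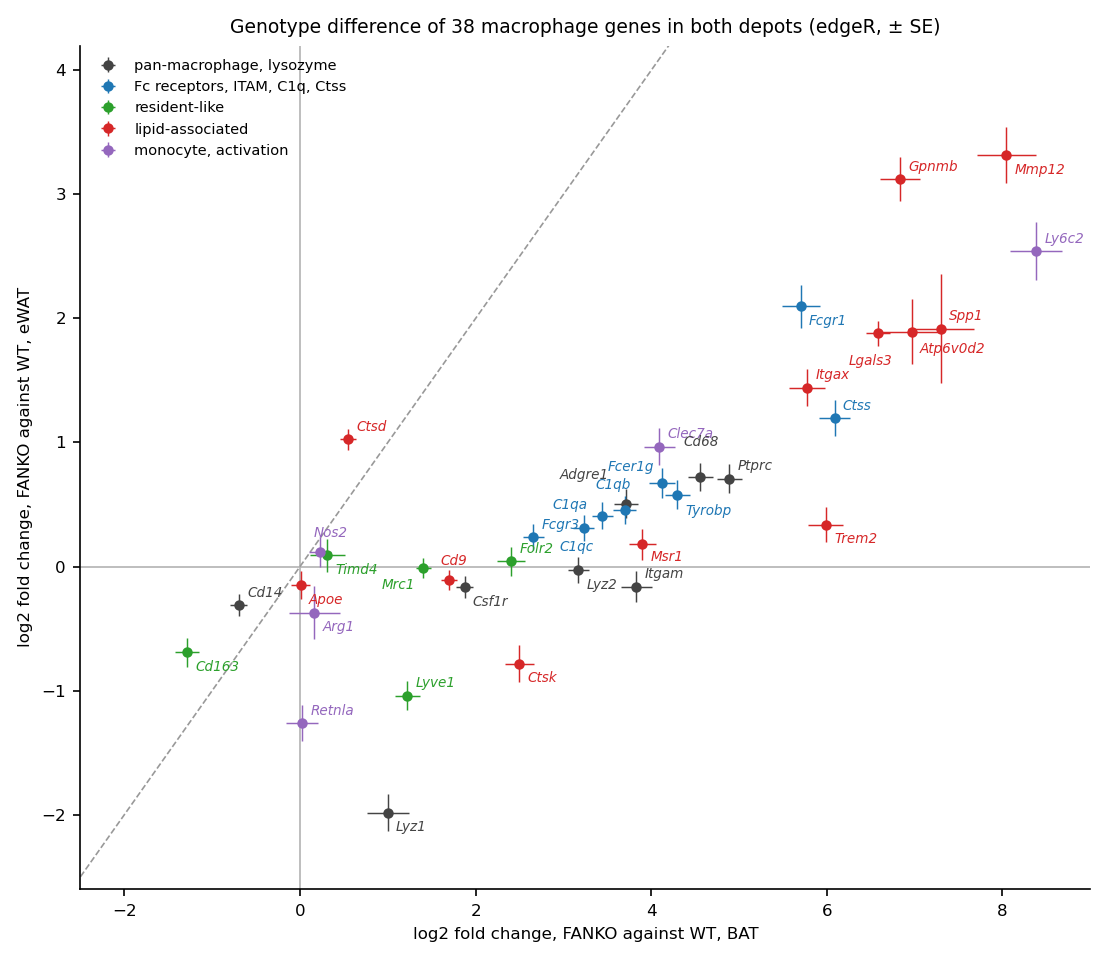
Log2 fold change of FANKO against WT in BAT (horizontal axis) and eWAT (vertical axis) for 38 genes (*Marco* is left out for its low counts), ± SE, coloured by group; the dashed line marks equal fold changes. *Lyz1*, *Lyve1* and *Ctsk* lie below 0 on the vertical axis and above 0 on the horizontal axis, and *Ctsd*, *Cd14* and *Cd163* lie above the dashed line by more than their SEs.

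The 2 depots shared 18 genes that rose in both and 2 that fell in both, *Cd163* and *Cd14*. A further 10 rose in BAT and did not pass in eWAT, and *Lyz1*, *Lyve1* and *Ctsk* rose in BAT and fell in eWAT. *Retnla* and *Marco* fell in eWAT and did not pass in BAT. *Timd4*, *Apoe*, *Nos2* and *Arg1* passed in neither. The difference between the depots was tested as an interaction term: the genotype effect was lower in eWAT than in BAT for 31 of the 39 and higher for 3, where 32.2% of all genes were lower and 32.1% higher. The median interaction was -3.20 on the log2 scale, and -0.045 over all genes. It was largest in size for *Ly6c2* (-5.84 ± 0.45), *Trem2* (-5.65 ± 0.25) and *Spp1* (-5.38 ± 0.78). The effect was higher in eWAT for *Ctsd* (0.48 ± 0.12, adjusted p = 0.00048, edgeR), and for *Cd14* and *Cd163*, whose calls failed under 9 of 16 and 6 of 16 alternative settings.

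These differences changed which depot held the higher levels, in comparisons that use the same samples as those between genotypes. In WT mice, 36 of the 39 genes were higher in eWAT than in BAT and *Ctsd* was lower, where 41.1% of all genes were higher and 32.7% lower. *Adgre1* was 5.07-fold and *Csf1r* 5.93-fold higher in WT eWAT, and *Lgals3* 22.3-fold. *Retnla*, with medians of 171 CPM in eWAT and 6.30 CPM in BAT, differed 26.5-fold, and *Lyz1* 33.5-fold. *Marco* had 787 counts over 16 WT eWAT samples and 2 over 16 WT BAT samples. In FANKO mice, 12 genes were higher in eWAT and 21 lower, where 31.6% of all genes were higher and 28.1% lower. All 12 were also higher in WT eWAT, and they held the 5 resident-like genes with *Csf1r*, *Lyz1*, *Cd14*, *Apoe*, *Marco*, *Arg1* and *Retnla*. Of the 21, 20 were higher in eWAT of WT mice, and the other was *Spp1*. *Spp1* was 30.5-fold lower in eWAT than in BAT of FANKO mice (log2 difference -4.93 ± 0.28), *Ly6c2* 11.5-fold and *Ctss* 5.19-fold. *Lgals3*, *Fcgr3*, *Cd9*, *Lyz2*, *Ctsd* and *Nos2* did not pass between the FANKO depots. The plot of depot differences shows the change of side.

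**Figure D3:**
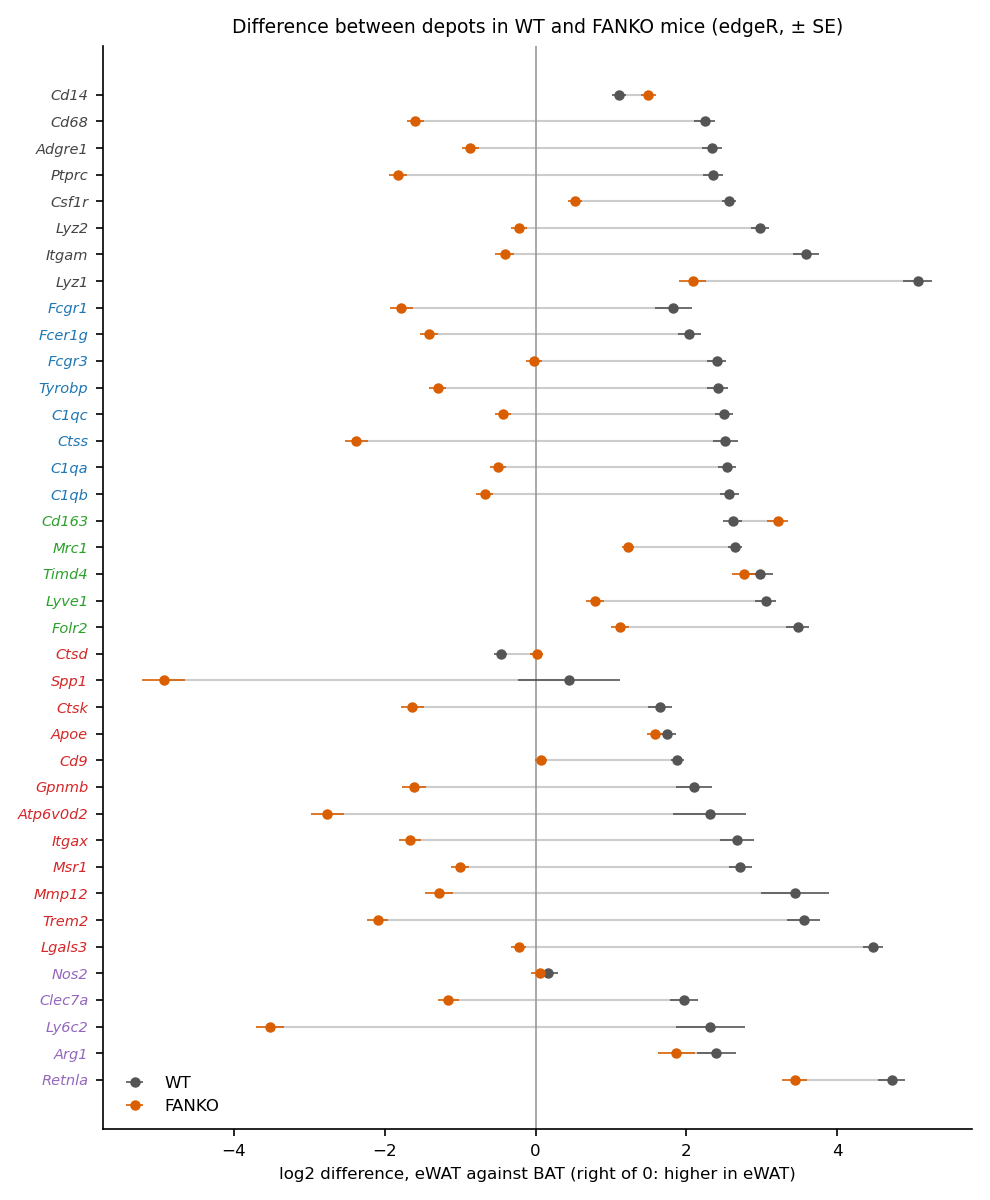
Log2 difference between eWAT and BAT (horizontal axis, right of 0 higher in eWAT) for 38 genes in WT and FANKO mice, ± SE. In WT mice all but *Ctsd* lie right of 0 (*Nos2* and *Spp1* did not pass), while in FANKO mice *Spp1* (-4.93), *Ly6c2* (-3.52) and *Atp6v0d2* (-2.77) lie farthest left and *Retnla* (3.44) and *Cd163* (3.21) farthest right.

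Levels of different genes are compared here as median CPM per kilobase of exon. The length joins every annotated exon of a gene, so exons that few transcripts use lower the value. In WT BAT the highest were *Ctsd* at 447 and *Apoe* at 200, with *Lyz2* at 24.9 and *C1qa* at 14.6 next. In FANKO BAT *Ctsd* at 650 was followed by *Ctss* at 338, *Lyz2* at 220, *Apoe* at 202, *Lgals3* at 159 and *C1qa* at 155. In WT eWAT *Apoe* at 678, *Ctsd* at 328 and *Retnla* at 286 led, and in FANKO eWAT *Ctsd* at 643, *Apoe* at 615 and *Lyz2* at 211. *Trem2* was low per kilobase in all, from 0.0925 in WT BAT to 5.46 in FANKO BAT, over a joined exon length of 4946 bases. Its rank among genes depends on that length. *Csf1r*, *Itgam*, *Folr2*, *Cd9*, *Spp1*, *Mmp12* and *Ctsd* share exon bases with another annotated gene, so their levels are less certain.

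To compare genes at a set level of pan-macrophage transcripts, counts were rescaled to the summed count of *Adgre1*, *Csf1r*, *Cd68* and *Fcgr1*, which leaves 35 genes to compare. On this scale 17 of the 35 were higher in FANKO BAT and 15 lower, where 4.60% of all genes were higher and 88.6% lower. In eWAT 15 were higher and 8 lower, where 10.5% of all genes were higher and 22.2% lower. The reference is itself uneven, since *Csf1r* made up a median of 65.1% of the sum in WT BAT and 27.1% in FANKO BAT, so only calls held under all 3 references tried are named: these 4 genes, *Adgre1* alone, and *Ptprc*, *Tyrobp* and *Fcer1g*. *Ptprc*, carried by all leukocytes, made up medians of 69.8% (WT BAT) to 78.5% (FANKO BAT) of that last sum. Median log2 fold changes of FANKO against WT were 5.20 in BAT and 1.45 in eWAT for T cell genes. For B cell genes they were 3.68 and -0.86. That sum does not measure macrophages alone, and the part of other leukocytes was not tested. *Adgre1* is also among the 4 genes, so the 3 references are not independent. With *Ptprc*, *Tyrobp* and *Fcer1g*, 32 genes were in no reference, of which 9 were higher and 22 lower in BAT. Of all genes, 1.33% were higher and 93.3% lower. In eWAT 8 were higher and 21 lower, where 3.16% of all genes were higher and 65.1% lower. Against *Adgre1* alone, 3.28% of all genes were higher and 90.6% lower in BAT, and 4.06% and 48.9% in eWAT. The share of all genes called under all 3 references was not counted. It cannot exceed the smallest single share, 1.33% higher and 88.6% lower in BAT, and 3.16% and 22.2% in eWAT.

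Under all 3 references, 9 genes were higher in FANKO BAT, 7 of them lipid-associated: *Trem2*, *Gpnmb*, *Spp1*, *Mmp12*, *Lgals3*, *Atp6v0d2* and *Itgax*, with *Ctss* and *Ly6c2*. *Lgals3* was higher by 3.47 ± 0.12 on the log2 scale against the 4 genes and by 1.88 against *Ptprc*, *Tyrobp* and *Fcer1g*, and *Trem2* by 2.83 ± 0.13 and 1.25. The 15 genes lower under all 3 included the 5 resident-like genes, among them *Mrc1* at -1.68 ± 0.08 and *Cd163* at -4.36 ± 0.18. They also included *Cd9*, *Ctsk*, *Ctsd* and *Apoe* of the lipid-associated group. Most genes were lower on this scale: the median over all genes was -3.07 in BAT against the 4 genes. Of the 5 resident-like genes, only *Cd163* lay below that median. In eWAT 8 genes were higher under all 3, 6 of them lipid-associated: *Gpnmb* (2.95 ± 0.16), *Mmp12* (3.12 ± 0.20), *Lgals3* (1.72 ± 0.10), *Spp1*, *Atp6v0d2* and *Itgax*, with *Ctss* and *Ly6c2*. *Trem2* was not among them: it was at 0.17 ± 0.10 against the 4 genes and -0.18 against *Adgre1*, and was lower, at -0.35, against *Ptprc*, *Tyrobp* and *Fcer1g*. The 8 lower in eWAT were *Itgam*, *Lyz1*, *Cd14*, *Cd163*, *Lyve1*, *Ctsk*, *Marco* and *Retnla*. Against the 4 genes, 8 of 35 lower was near the 22.2% of all genes.

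**Figure D4:**
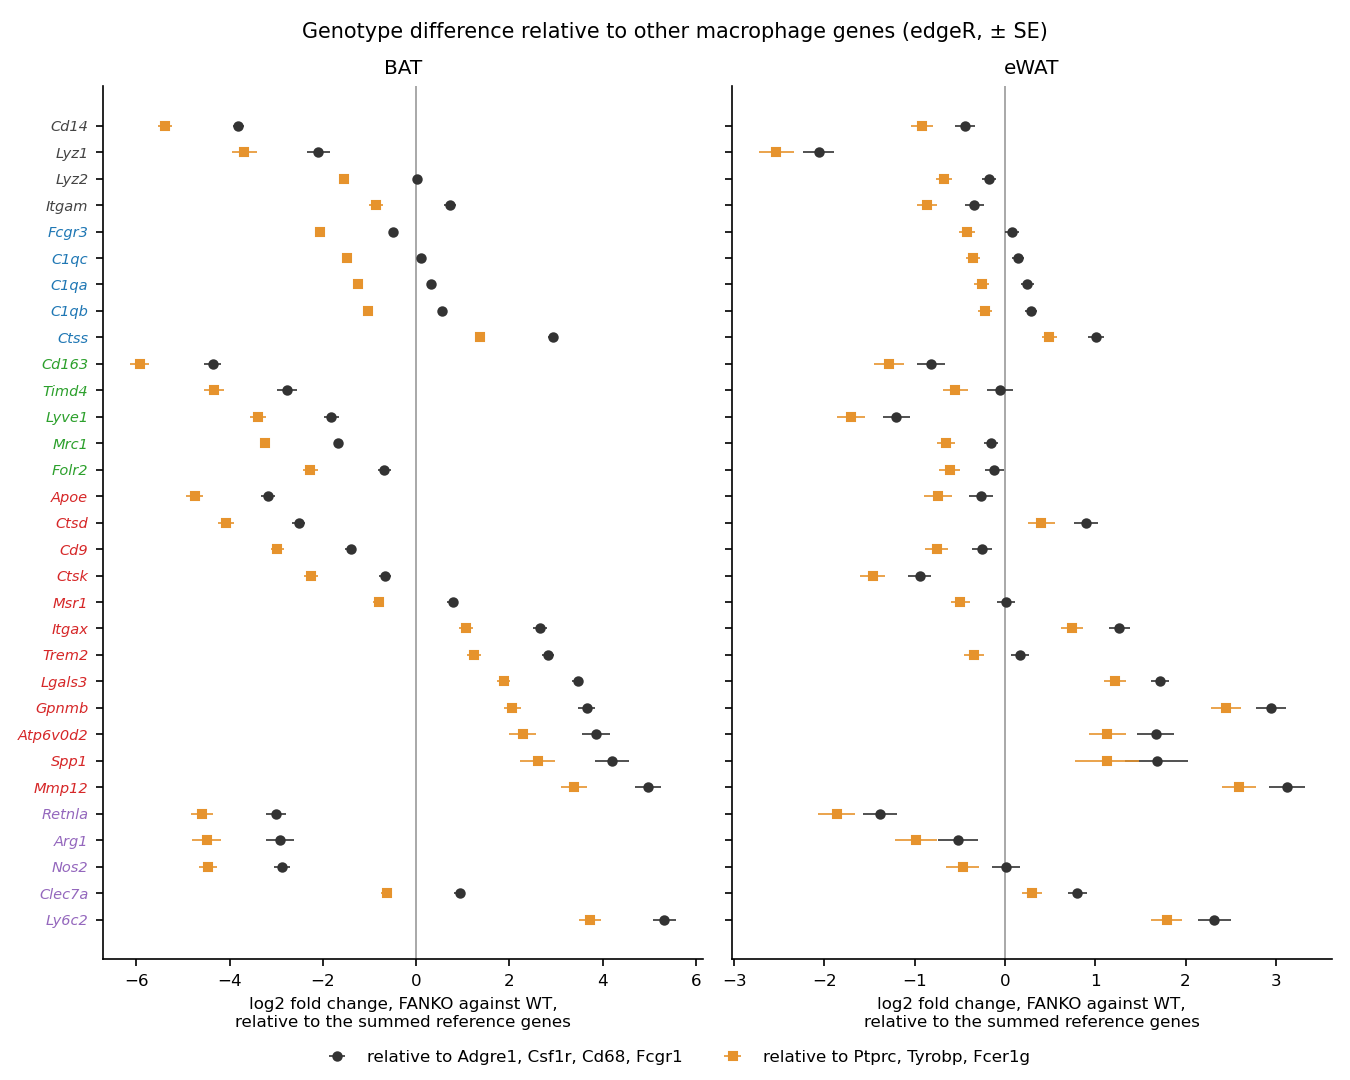
Log2 fold change of FANKO against WT in BAT and eWAT after rescaling to *Adgre1*, *Csf1r*, *Cd68* and *Fcgr1* or to *Ptprc*, *Tyrobp* and *Fcer1g*, ± SE, edgeR. *Mmp12* (4.97 in BAT and 3.12 in eWAT against the 4 genes) and *Gpnmb* (3.65 and 2.95) lie right of 0 in both depots, and *Cd163* (-4.36 and -0.82) left of it. Against the 4 genes the median over all genes was -3.07 in BAT and -0.16 in eWAT.

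Further genes of the same cells and pathways were counted from lists, and the genes named from each are those with the largest called differences among genes with a mean log2 CPM of at least 1. Among all genes tested, 33.1% rose and 33.9% fell in BAT, and 27.6% rose and 22.8% fell in eWAT. Of 18 other macrophage genes, 17 rose and *Mgl2*, a lectin gene, fell in FANKO BAT, and 7 rose and 5 fell in eWAT. *Cd5l*, a scavenger protein secreted by macrophages, *Ms4a7* and *Fcgr4*, an IgG receptor, rose in BAT at log2 fold changes of 7.44 ± 0.38, 5.57 ± 0.20 and 5.43 ± 0.26. *Fcgr4* (3.20 ± 0.24), *Aif1* (1.24 ± 0.17) and the pore-forming protein gene *Mpeg1* (1.23 ± 0.12) rose in eWAT. All 12 genes of signalling below TREM2 and other ITAM receptors rose in BAT, among them the Src-family kinase gene *Fgr* (5.78 ± 0.21) and the exchange factor gene *Vav1* (4.77 ± 0.14). In eWAT 6 of the 12 rose and none fell.

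Of 20 other lysosomal and lipid-handling genes, 17 rose and *Lgals1* fell in FANKO BAT, and 13 rose and 2, *Lgals1* and *Abca1*, fell in eWAT. *Capg*, an actin-capping protein gene, rose in BAT (4.30 ± 0.13), as did *Slc37a2* (3.90 ± 0.16) and the cholesteryl ester hydrolase gene *Nceh1* (3.54 ± 0.11). In eWAT *Plin2*, which coats lipid droplets in many cells, *Fabp5*, a fatty acid binding protein gene, and *Ctsz* rose by 2.43 ± 0.12, 2.29 ± 0.13 and 1.55 ± 0.08 on the log2 scale. *Plin2* had 131, 243 and 688 CPM in WT and 998, 1769 and 2309 CPM in FANKO eWAT, without overlap. Of 14 growth factor and transcription factor genes, 9 rose and 2 fell in BAT, and 4 rose and 3 fell in eWAT. The eWAT counts of these 14 were near the shares of all genes, 27.6% higher and 22.8% lower. *Irf8* (4.42 ± 0.13) and *Spi1*, which encodes PU.1 (4.01 ± 0.14), rose in BAT. In eWAT *Irf8* rose, at 0.57 ± 0.11, and *Il34*, the other ligand of CSF1R, fell, at -0.85 ± 0.09.

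Markers of other cells moved as well, and their part in the results above was not tested. Their counts stand beside 33.1% of all genes higher and 33.9% lower in BAT, and 27.6% and 22.8% in eWAT. All 8 T cell genes rose in FANKO BAT, where they summed to 58.2, 94.7 and 181 CPM against 2.27, 3.18 and 5.44 CPM in WT. In eWAT 7 of the 8 rose, with sums of 10.8, 17.2 and 32.1 CPM against 4.42, 5.87 and 12.6 CPM. All 6 B cell genes rose in BAT and 5 fell in eWAT. Their sums had medians of 5.64 and 26.7 CPM in WT and FANKO BAT, and 14.1 and 10.9 CPM in WT and FANKO eWAT. *Itgax* is also used as a dendritic cell marker. Of 6 dendritic cell genes, 5 rose and 1 fell in BAT, and 3 rose and 1 fell in eWAT. All 6 fibroblast genes rose in BAT and fell in eWAT, with median sums of 668 and 1508 CPM in BAT and 3132 and 1632 CPM in eWAT. The 6 general adipocyte genes all fell in BAT, from a median sum of 12020 to 6504 CPM, while in eWAT 3 fell, 1 rose and the medians were 13867 and 14832 CPM. Neutrophil genes were near 0, with 2 of 8 tested and sums of at most 3.47 CPM. *S100a8* rose in BAT and *S100a9* in eWAT, both at medians under 1 CPM. Of 5 mast cell genes tested, 3 rose in BAT, and 1 rose and 3 fell in eWAT. Of 5 endothelial genes, 1 rose and 3 fell in BAT and 2 fell in eWAT, and of 5 mesothelial genes 1 fell in BAT and all 5 in eWAT. Of 5 white adipocyte genes, 2 rose and 1 fell in BAT, and 1 rose and 3 fell in eWAT. Of 6 brown adipocyte genes, 3 fell in BAT, and 2 rose and 1 fell in eWAT. No muscle gene passed in BAT and 1 rose in eWAT, and none of 4 epididymis genes tested passed. Without the 7 samples rich in muscle RNA, or without the 3 rich in B cell RNA, the macrophage counts in BAT were the same, 31 higher and 2 lower.

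Few of the 39 genes were called rhythmic over the day. A 24-h rhythm was tested in each depot and genotype by edgeR's quasi-likelihood test on a cosine and a sine term (FDR below 0.01). In WT BAT 2 of the 39 were rhythmic, where 13.9% of all genes were, and in FANKO BAT none were, where 2.84% of all genes were; 5 had an unadjusted p below 0.05 there, and neither DESeq2 nor limma-voom called any. In WT eWAT 2 were rhythmic, where 9.38% of all genes were, and in FANKO eWAT 3, where 6.77% of all genes were. No gene of the 39 had a rhythm that differed between genotypes, where 2.76% of all genes did in BAT and 1.15% in eWAT. At an unadjusted p below 0.05 there were 5 in BAT and 4 in eWAT, and DESeq2 and limma-voom called none.

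*Cd14* was rhythmic in both depots of WT mice. In WT BAT it rose from 6.11 ± 0.99 CPM (SD, n = 4) at ZT 6 to 9.93 ± 2.19 CPM at ZT 18, and in WT eWAT from 12.4 ± 1.08 to 23.5 ± 7.33 CPM (adjusted p = 0.0035 and 0.00017, edgeR). The call in WT eWAT was lost without replicate 1 (adjusted p = 0.017, edgeR). In FANKO BAT its time-point means lay between 4.37 and 4.88 CPM, and in FANKO eWAT between 12.1 and 15.6 CPM. *Cd163* had 9.98 ± 1.75 CPM at ZT 6 and 21.3 ± 6.38 CPM at ZT 18 in WT BAT (adjusted p = 0.0046, edgeR). That call and the one of *Cd14* in WT BAT were both lost without the 7 samples rich in muscle RNA, with adjusted p of 0.40 and 0.14 by edgeR, and failed under 8 of 16 alternative settings for *Cd163* and 5 of 16 for *Cd14*, among them without replicate 1 or 3. *Arg1* in WT eWAT had its highest mean at ZT 18, 6.51 ± 5.24 CPM, where 1 sample had 14.1 CPM and the others 2.44 to 5.91 CPM. Its call (adjusted p = 0.0065, edgeR) was lost under 7 of 16 alternative settings, among them without replicate 1 or replicate 4.

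In FANKO eWAT, *Fcgr1* and *Ly6c2* had their lowest means at ZT 18 and *Lyz1* its highest. *Fcgr1* had 23.6 ± 12.6 CPM at ZT 6 and 6.86 ± 1.00 CPM at ZT 18 (adjusted p = 0.00019, edgeR), while its WT means stayed between 2.81 and 3.83 CPM. *Ly6c2* had 10.5 ± 8.44 CPM at ZT 6 and 2.04 ± 0.69 CPM at ZT 18 (adjusted p = 5.5e-05, edgeR). *Lyz1* had 5.01 ± 1.19 CPM at ZT 6 and 11.97 ± 2.51 CPM at ZT 18 (adjusted p = 0.0038, edgeR). Replicate 3 was the highest of the 4 samples at ZT 6 for *Fcgr1* (41.6 CPM) and *Ly6c2* (23.1 CPM). Without replicate 3 of every group no gene was rhythmic in FANKO eWAT, with adjusted p of 0.019 for *Fcgr1* and 0.022 for *Ly6c2* by edgeR. The *Lyz1* call was also lost without replicate 2 or 4.

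**Figure D5:**
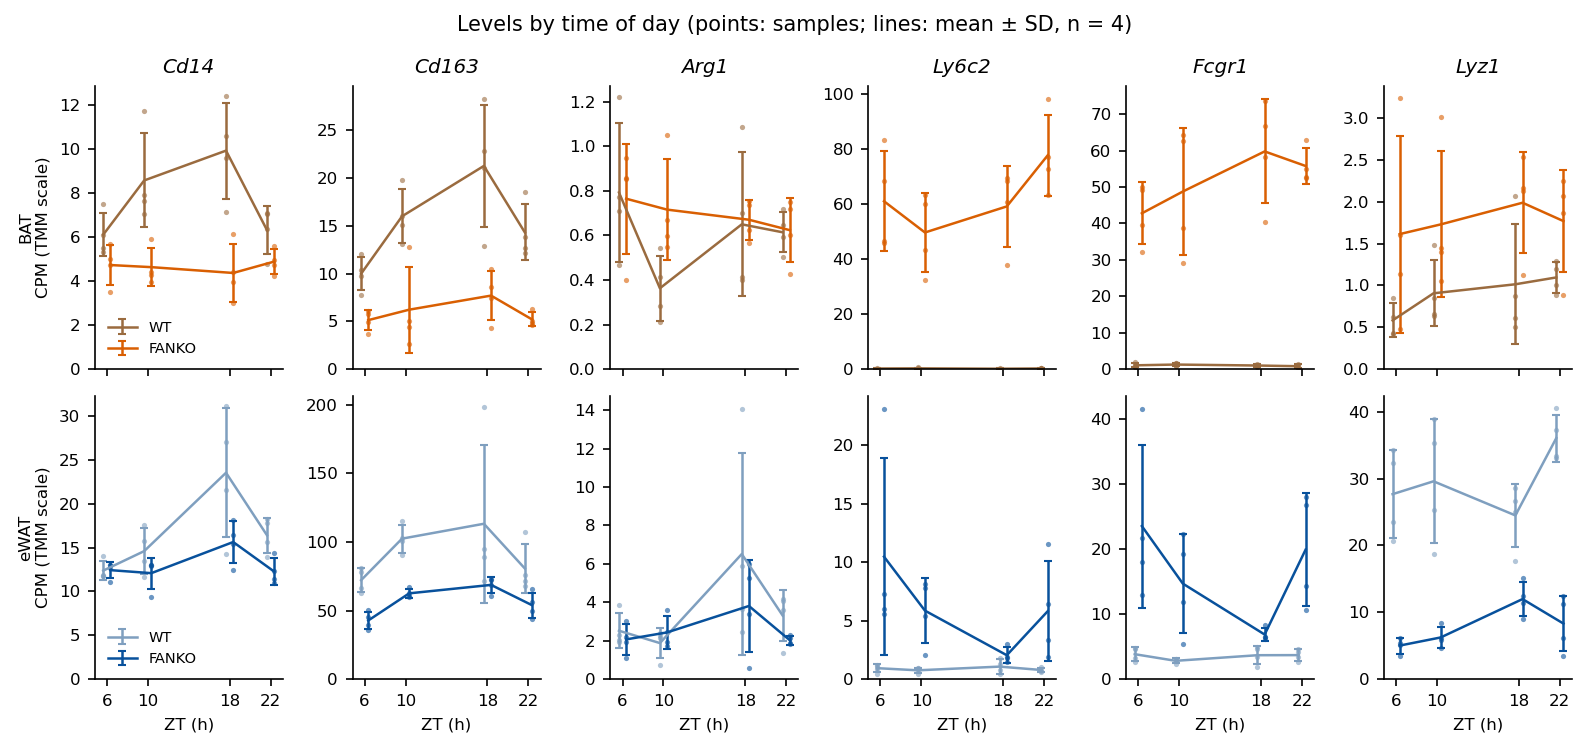
Level in CPM of the 6 genes with a rhythm in at least 1 depot and genotype against ZT in hours, in BAT (upper row) and eWAT (lower row); points are samples and lines the mean ± SD of 4. *Cd14* peaks at ZT 18 in WT BAT (9.93 CPM) and WT eWAT (23.5 CPM), and *Fcgr1* in FANKO eWAT falls from 23.6 CPM at ZT 6 to 6.86 CPM at ZT 18.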

How the data were processed

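The authors sequenced adipose RNA from ribosomal-RNA depleted, stranded libraries as 38-bp paired-end reads. The reads were mapped with STAR 2.5.3a to GRCm38.p5, and the deposited counts are read counts per gene from featureCounts 1.5.3 with a GENCODE annotation, not normalized. FastQC 0.11.5 and MultiQC 1.2 are also named, while the strand and multi-mapping settings of the counting are not given in the sources used here. All 64 samples were used, grouped by their labels.

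Genes were kept with filterByExpr of edgeR 4.0.16 (R 4.3.3, minimum count 10), which left 32387 genes untested, and scaled by TMM. A single quasi-likelihood fit over the 64 samples had 12 coefficients, a mean, a cosine and a sine of a 24-h period for each depot and genotype. P-values were adjusted by Benjamini-Hochberg over the 20249 genes, with an FDR below 0.01. The SE of a log2 fold change is its size over the square root of F. On the relative scale the library size was the summed count of *Adgre1*, *Csf1r*, *Cd68* and *Fcgr1*. CPM were computed from the counts with the TMM factors. The steps were tested on simulated data. Motifs were searched in the 250 bases before each start.

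The 39 genes and all lists (4 pathway lists, 10 lists of other cells, 3 of adipocytes) were chosen with earlier results of these data known. All 39 are reported. From each pathway list, at most 3 called genes with the largest log2 fold change and a mean log2 CPM of at least 1 are named, and *Mgl2*, *Lgals1*, *Abca1*, *S100a8* and *S100a9* were named after their values were seen. A gene that this rule picks is not reported here. Promoters are shown for the 4 lipid-associated genes with the smallest p-values in eWAT. Alternatives were RLE factors, library size alone, DESeq2 1.42.0, limma-voom (limma 3.58.1), no filter, a minimum count of 30, the time point as a factor, the replicate number or the depot pair of equal number as a block, a fit per depot, each replicate number left out, an FDR below 0.05, and 2 other references. Removal of mitochondrial genes, of 7 BAT samples with over 100 CPM of muscle genes and of 3 samples with over 50 CPM of B cell genes was chosen after seeing the data.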

Additional observations from a re-analysis of the deposited data

Results flagged for a closer look

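In 28 groups of 4 samples at 1 time point, the lowest or highest sample was compared with the others by Dixon's criterion at its 95% critical value, by which chance picks about 1 group in 20. *Cd14* in 1 sample of WT eWAT at ZT 6 had 13.99 CPM, against 11.8 to 11.9 CPM in the other samples. *Arg1* in 1 sample of WT eWAT at ZT 10 had 0.732 CPM, against 2.14 to 2.40 CPM. *Ly6c2* in 1 sample of FANKO eWAT at ZT 6 had 23.1 CPM, against 5.54 to 7.28 CPM.

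The genotype effect differed between eWAT and BAT for 34 genes by the interaction term of edgeR's quasi-likelihood test. The log2 differences, effect in eWAT minus effect in BAT, were as follows for the pan-macrophage and leukocyte genes: *Adgre1* -3.21, *Cd68* -3.84, *Csf1r* -2.04, *Itgam* -3.99, *Ptprc* -4.18, *Lyz1* -2.98, *Lyz2* -3.20 and *Cd14* 0.39. For the Fc receptor, adaptor, C1q and cathepsin genes they were *Tyrobp* -3.71, *Fcer1g* -3.45, *Fcgr1* -3.61, *Fcgr3* -2.42, *C1qa* -3.03, *C1qb* -3.25, *C1qc* -2.93 and *Ctss* -4.89. For the resident-like genes they were *Mrc1* -1.42, *Cd163* 0.60, *Lyve1* -2.26 and *Folr2* -2.36. For the lipid-associated genes they were *Trem2* -5.65, *Gpnmb* -3.71, *Cd9* -1.80, *Spp1* -5.38, *Mmp12* -4.72, *Ctsk* -3.28, *Ctsd* 0.48, *Lgals3* -4.70, *Atp6v0d2* -5.07, *Itgax* -4.34 and *Msr1* -3.72. For the monocyte and activation genes they were *Clec7a* -3.12, *Ly6c2* -5.84 and *Retnla* -1.29. The difference for *Ctsd* was lost without replicate 2 (adjusted p = 0.014, edgeR).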

How the results depend on the processing

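The counts of genes called in BAT (31 higher, 2 lower) and of lower interactions (31) stayed within 1.5 times under the alternatives run, except that library size alone left 1 lower in BAT. That scaling also gave 12 lower in eWAT (7 with TMM), 0 lower in eWAT than BAT of WT mice, 0 higher interactions, 0 rhythmic genes in WT BAT and 1 in WT eWAT. Higher interactions numbered 3 with TMM and 1 each with RLE factors, a minimum count of 30 or the muscle-rich samples left out. Rhythmic genes in WT BAT numbered 2, and 0 with limma-voom or the muscle-rich samples left out, and 1 with the time point as a factor or a separate fit per depot. In WT eWAT they numbered 2, and 1 each with limma-voom, a separate fit per depot, the muscle-rich or the B-cell-rich samples left out. Relative to *Ptprc*, *Tyrobp* and *Fcer1g*, 9 of 32 genes were higher and 22 lower in BAT, and 8 higher and 21 lower in eWAT, beside 1.33% and 93.3% of all genes in BAT and 3.16% and 65.1% in eWAT; relative to *Adgre1*, 15 of 35 were lower in eWAT, beside 48.9% of all genes. Leaving out each replicate number gave 13 to 19 higher in eWAT, 0 to 3 higher interactions, and 0 to 3, 0 to 2 and 0 to 3 rhythmic genes in WT BAT, WT eWAT and FANKO eWAT. Over all genes, those fits called 1680 to 2306 rhythmic in WT BAT (2807 with every sample). They called 768 to 1955 in WT eWAT (1899 with every sample) and 633 to 1065 in FANKO eWAT (1370 with every sample).

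Log2 fold changes that turned sign belonged to genes that did not pass. In BAT *Apoe* was -0.027 with limma-voom, -0.014 without mitochondrial genes, -0.10 without the B-cell-rich samples and -0.060 to 0.043 with replicates left out. *Marco* was -0.24 and *Retnla* -0.096 with limma-voom, and *Retnla* -0.00404 with the time point as a factor, -0.0236 without the B-cell-rich samples and -0.017 to 0.061 with replicates left out. In eWAT library size alone gave -0.00539 for *Fcgr3*, -0.20 for *Folr2*, -0.15 for *Timd4*, -0.0605 for *Msr1* and -0.12 for *Nos2*. *Folr2* was -0.014 with RLE factors, -0.015 with DESeq2 and -0.0293 with a minimum count of 30, and *Mrc1* 0.014 without the B-cell-rich samples. With replicates left out, *Lyz2* ran from -0.18 to 0.051, *Mrc1* from -0.11 to 0.041, *Folr2* from -0.17 to 0.13, *Timd4* from -0.0295 to 0.15 and *Msr1* from -0.065 to 0.29. The cause was not tested.

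With the replicate block no count changed (31 higher and 2 lower in BAT, 18 and 7 in eWAT). Deviations of same-numbered samples had correlations of -0.133 to 0.306 over 32 pairs of depots, with 10 over 0.1, and 18 of the 32 correlated best with their own number. The labels do not say that a number marks 1 animal, and whether the numbers pair the depots was not settled. With a block of the 32 depot pairs no count changed (36 higher and 1 lower in eWAT than BAT of WT mice, 12 and 21 in FANKO mice, and 3 higher and 31 lower interactions). Depth limits *Marco*, *Spp1*, *Mmp12*, *Atp6v0d2* and *Ly6c2* in WT BAT, which had 2 to 43 counts in all.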
